A study of Mus musculus with 6 samples.

Results

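The granzyme and perforin genes were examined in 6 poly(A) RNA-seq libraries of CD8 T cells of C57BL/6J mice. They were the granzyme genes Gzma, Gzmb, Gzmc, Gzmd, Gzme, Gzmf, Gzmg, Gzmk and Gzmm and the perforin gene Prf1, chosen by symbol, which made 10 of the 46517 gene identifiers in the tables. In 3 libraries the cells had received supernatant of basophils cultured with IL-3 at 3 ng/mL, and in the 3 others supernatant of basophils cultured with PBS in place of IL-3. The basophils had been sorted and kept for 2 days, and IL-2 at 100 units/mL was in both of their cultures. The T cells of both groups were purified as naive cells, kept for 3 days on plates coated with antibody to CD3 at 5 µg/mL, and given antibody to CD28 at 0.5 µg/mL and IL-2 at 100 units/mL. They received the supernatant between day 1 and day 2. The labels describe no arm with IL-3 but no basophils, so IL-3 carried over in the supernatant and products of the basophils cannot be told apart. Nothing in the labels says whether replicates were different animals or different wells, so the p-values here rest on variation between these libraries alone, part or all of which may be technical.

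Cytotoxic T cells kill by releasing granules that hold perforin, which forms pores in the membrane of the target cell, and granzymes, serine proteases that enter the target through those pores. Granzyme B cuts after aspartate and activates caspases and Bid, whereas granzyme A cuts after basic residues and acts without caspases. Naive CD8 T cells hold little of either, and stimulation of the antigen receptor together with IL-2, which signals through STAT5, strongly raises Gzmb transcript. In the mouse, Gzmb shares a cluster on chromosome 14 with Gzmc to Gzmg, rodent genes of less well known function, and with the chymase genes of mast cells and basophils.

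The start of the coding sequence is a stretch in which Gzmc to Gzmf are alike and Gzmb is not. How far reads can be assigned to a single member rests on whole transcripts, compared below the sequences. The first 60 coding bases, from the start codon on, are given for the 5 members of the cluster that had counts. They are from the GENCODE M21 transcripts of GRCm38, with capitals where a gene differs from Gzmd at the same position.
Gzmb: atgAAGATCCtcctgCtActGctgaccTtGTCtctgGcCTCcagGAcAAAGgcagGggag
Gzmc: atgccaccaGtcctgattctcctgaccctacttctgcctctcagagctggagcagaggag
Gzmd: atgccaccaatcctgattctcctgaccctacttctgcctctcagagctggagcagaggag
Gzme: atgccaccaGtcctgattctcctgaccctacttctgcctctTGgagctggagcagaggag
Gzmf: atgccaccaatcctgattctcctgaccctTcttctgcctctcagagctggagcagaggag
Gzmc and Gzmf each differed from Gzmd at 1 of these positions, Gzme at 3 and Gzmb at 25. Over the whole coding sequence, Gzmd and Gzme shared 94.8% of aligned bases, gaps left out, and the lowest value among Gzmc to Gzmg was 73.3%, between Gzmc and Gzme. Gzmc was closer to Gzmb, at 76.6%, than to any of those, although its first bases are those of the Gzmd type. Every window of 50 bases in the transcripts of Gzma, Gzmb, Gzmk, Gzmm and Prf1 was absent from all other genes. Of the windows of Gzmc, 4.14% were also found in another gene, of Gzmf 7.36%, of Gzmg 19.8%, of Gzme 20.6% and of Gzmd 21.9%. At 100 bases, 0.231% of the windows of Gzmd and 0.247% of those of Gzmg were shared and none of the other members'. The read length is not given in the sources used here, so how the authors' expected counts divided reads among Gzmd, Gzme, Gzmf and Gzmg is uncertain.

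Promoters are shown for Gzmb, the most abundant member, and for Gzmc and Gzmd, since every detected member of the cluster lay higher in each IL-3 supernatant library than in any PBS supernatant library. Each is the 250 bases before the start site in RefSeq's annotation of GRCm38.p6, all on the minus strand, at chr14:56262335-56262584 for Gzmb, chr14:56234658-56234907 for Gzmc and chr14:56132594-56132843 for Gzmd. Capitals mark matches, on either strand, to 1 of 6 motifs searched.
Gzmb: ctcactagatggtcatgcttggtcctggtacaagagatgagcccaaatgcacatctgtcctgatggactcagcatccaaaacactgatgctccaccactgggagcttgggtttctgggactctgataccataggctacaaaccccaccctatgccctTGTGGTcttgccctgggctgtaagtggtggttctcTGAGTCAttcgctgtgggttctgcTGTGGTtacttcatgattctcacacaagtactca
Gzmc: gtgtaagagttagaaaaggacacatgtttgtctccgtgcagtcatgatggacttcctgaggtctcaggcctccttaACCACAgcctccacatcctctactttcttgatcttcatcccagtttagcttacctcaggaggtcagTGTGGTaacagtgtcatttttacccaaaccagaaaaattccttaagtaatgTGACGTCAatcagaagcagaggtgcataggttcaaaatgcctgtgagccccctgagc
Gzmd: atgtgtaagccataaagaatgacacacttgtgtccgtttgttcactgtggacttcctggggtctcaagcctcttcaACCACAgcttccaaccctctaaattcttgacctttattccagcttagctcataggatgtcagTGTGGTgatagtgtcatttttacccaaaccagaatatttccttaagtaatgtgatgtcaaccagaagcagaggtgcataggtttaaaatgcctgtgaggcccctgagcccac
The motifs were the RUNX core TGTGGT, AP-1 TGANTCA, CRE TGACGTCA, STAT TTCNNNGAA, the T-box core GGTGTGA and the ETS core CCGGAAGT. All 10 members had a promoter in the table and were searched. The RUNX core occurred at 2 places in each promoter from Gzmb to Gzmg and at 1 place in those of Gzma, Gzmm and Prf1, whereas 14.05% of all 32851 promoters of that length hold it. In Gzmb it lay 93 and 34 bases before the start site, in Gzmc 174 and 108 and in Gzmd 174 and 112. An AP-1 match was present 58 bases before the start of Gzmb and in no other member's, beside 6.75% of all promoters. A CRE match was present in Gzmc, 57 bases before the start, and in Gzmf and Gzmg, but not in Gzmd or Gzme, beside 1.55% of all promoters. The STAT, T-box and ETS letters, held by 7.02%, 3.33% and 2.88% of all promoters, were in none of the windows from Gzmb to Gzmg and in none of those of Gzma and Prf1, while Gzmm held the STAT letters and Gzmk the T-box letters, each at 1 place. These matches describe letters and not binding. Over the table's whole windows, the promoters of Gzmc to Gzmg shared 86.1% to 94.0% of aligned bases with each other, and 56.0% to 61.2% with that of Gzmb.

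Library totals were 19283416 to 22174902 expected counts with IL-3 supernatant and 17377052 to 18753617 with PBS supernatant, and levels are given as CPM, counts scaled to library size. The first principal component, with 63.0% of the variance, separated the groups, and the second set PBS supernatant replicate 2 apart. The markers of CD8 T cells, Cd3e, Cd3d, Cd8a, Cd8b1, Trac and Trbc2, were all abundant. All 6 were called lower with IL-3 supernatant (adjusted p below 0.05 in edgeR), beside 16.1% of all tested genes. Their summed level was 1228 to 1328 CPM with IL-3 supernatant and 1995 to 2157 CPM with PBS supernatant. They fell unevenly, with log2 fold changes of -1.17 for Cd8a, -0.75 for Cd3e and -0.35 to -0.45 for the others. Cd8a was at 377 ± 15.5 CPM with IL-3 supernatant and 850 ± 41.1 CPM with PBS supernatant. Of the 10 basophil and mast cell markers, 5 had 0 counts in every library, among them the basophil proteases Mcpt8 and Prss34, and the list summed to 0.515 to 0.901 CPM with IL-3 supernatant and 2.27 to 3.28 CPM with PBS supernatant, nearly all of it Kit. The NK cell list summed to 10.9 to 12.4 CPM with IL-3 supernatant and 38.0 to 44.4 CPM with PBS supernatant, nearly all of it Eomes, which activated CD8 T cells also express, and the NK receptor Ncr1 had 0 counts with IL-3 supernatant and 1 with PBS supernatant. The 5 neutrophil markers had 0 counts in all 6 libraries. The CD4 T cell list summed to 17.6 to 19.7 CPM with IL-3 supernatant and to 13.5 to 15.2 CPM with PBS supernatant, most of it from 2 genes that went opposite ways. Zbtb7b was at 18.0 ± 1.29 CPM with IL-3 supernatant and 6.36 ± 1.72 CPM with PBS supernatant (log2 1.498). Foxp3, which encodes the factor that defines regulatory T cells, had 5, 4 and 1 counts with IL-3 supernatant and 87, 137 and 168 with PBS supernatant (log2 -5.43, adjusted p = 3.3e-08 in edgeR). Cd4 itself had 19 counts over the IL-3 supernatant group and 37 over the PBS supernatant group. The B cell list and the macrophage and dendritic cell list each summed to at most 3.22 CPM with IL-3 supernatant and 3.44 CPM with PBS supernatant. The part of the lower CD8 T cell markers and of the lower Foxp3 in the granzyme results was not tested.

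With IL-3 supernatant the CD8 T cells carried more transcript of Gzmb, Gzmc and Gzma, whereas Prf1 did not pass the test. Gzmf was also called higher, on few counts and with a call that was lost in several settings. Of the 10 genes, 5 had enough counts to be tested, 4 of those were higher and 0 lower at an adjusted p below 0.05 (edgeR quasi-likelihood test, Benjamini-Hochberg over 12407 genes), beside 14.8% of all tested genes called higher and 16.1% called lower. The other 5, Gzmd, Gzme, Gzmg, Gzmk and Gzmm, fell below the filter on low counts. A gene near that filter passes mainly through the group in which it is high, and neither Gzmf nor Gzma would have reached it on the PBS supernatant libraries alone, so the 4 of 5 is no support for a change of the family. In 6 of the 10 genes every IL-3 supernatant library lay above every PBS supernatant library, among them Gzmd and Gzme, which were not tested. That was so for 21.0% of all tested genes, and in 43.6% of tested genes the groups did not overlap in either direction. Those shares cover only genes past the filter and the 6 of 10 does not, so it too is no support for a change of the family. These are bulk libraries, in which fewer cells of a type and less RNA per cell cannot be told apart. The plot of CPM by library shows the 8 genes with more than 1 count.

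**Figure D1:**
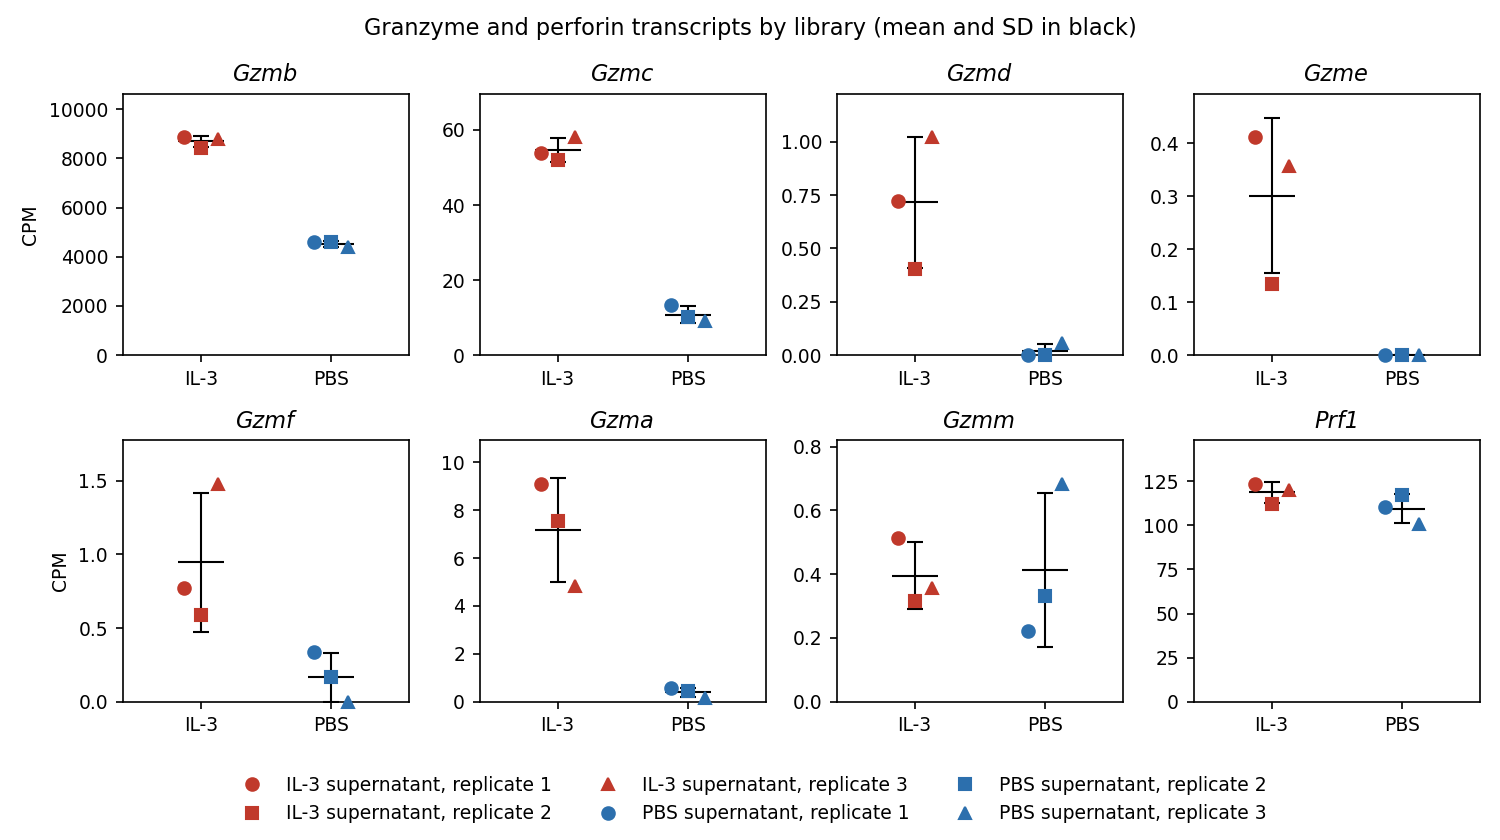
CPM of 8 granzyme and perforin genes in each library, on a linear axis from 0 with its own scale for each gene, with IL-3 supernatant on the left in red and PBS supernatant on the right in blue. Black bars are the mean and SD of 3 libraries. The groups are apart for Gzmb, Gzmc, Gzmd, Gzme, Gzmf and Gzma and overlap for Gzmm and Prf1, and the scales differ widely, with means of 8688 CPM for Gzmb and 0.301 CPM for Gzme in the IL-3 supernatant libraries.

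Gzmb, which encodes granzyme B (ENSMUSG00000015437, chr14:56258838-56262260, minus strand, GRCm38), had 8862, 8433 and 8771 CPM in the IL-3 supernatant libraries and 4593, 4584 and 4397 CPM in the PBS supernatant libraries. The replicates of each group lay close together and the groups were far apart. The log2 fold change was 0.94 (SE 0.05, adjusted p = 2.3e-10 in edgeR), or 1.92-fold, and 5.602% of tested genes had a larger increase. In TPM, which corrects for transcript length, Gzmb was at 11997 ± 356 with IL-3 supernatant and 6141 ± 229 with PBS supernatant (SD, n = 3 each). Among all genes ordered by TPM it held rank 2, 3 and 1 in IL-3 supernatant replicates 1, 2 and 3, against rank 5 in each of the 3 PBS supernatant libraries. A single gene, Gzmb took 0.888%, 0.845% and 0.891% of all counts with IL-3 supernatant and 0.461%, 0.441% and 0.444% with PBS supernatant. The difference of the mean levels, 4164 CPM, was the largest increase of any tested gene, with that of Ifng, the interferon gamma gene, next at 826 CPM. By amount, then, Gzmb stood first, and by ratio it did not.

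Prf1, which encodes perforin (ENSMUSG00000037202, chr10:61297833-61304680, plus strand), had 123.7, 112 and 120.1 CPM in the IL-3 supernatant libraries and 110.3, 117 and 101 CPM in the PBS supernatant libraries. In CPM the groups overlapped, since IL-3 supernatant replicate 2 lay below PBS supernatant replicate 2. In TPM they did not, narrowly, at 117.4, 106.6 and 115.5 with IL-3 supernatant and 106.15, 105.4 and 95.8 with PBS supernatant. PBS supernatant replicate 2, whose TPM were added up from isoforms, had the highest CPM of its group but not the highest TPM. The TPM were not TMM-scaled as the CPM were, so the narrow gap is no firm separation. Its log2 fold change was 0.12 (SE 0.07, adjusted p = 0.201 in edgeR), which does not show that the level was the same. The number of Gzmb counts per Prf1 count was 71.6, 75.1 and 73.0 with IL-3 supernatant and 41.6, 39.2 and 43.5 with PBS supernatant. Per length, as a ratio of TPM, the cells had 106 ± 2.49 Gzmb transcripts per Prf1 transcript with IL-3 supernatant and 60.04 ± 3.19 with PBS supernatant (SD, n = 3 each). The ratio does not depend on how libraries are scaled, and it was 1.77 times as high with IL-3 supernatant, with no overlap (exact two-sided permutation test on log2 ratios, p = 0.10, the smallest that 3 against 3 libraries allow). Prf1 held rank 1454 to 1621 by TPM with IL-3 supernatant and rank 1588 to 1865 with PBS supernatant.

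Gzmc, which encodes granzyme C (ENSMUSG00000079186, chr14:56231441-56234656, minus strand), had 53.9, 52.0 and 58.1 CPM in the IL-3 supernatant libraries and 13.2, 10.1 and 9.12 CPM in the PBS supernatant libraries. The groups did not overlap, and the log2 fold change was 2.34 (SE 0.12, adjusted p = 3.9e-10 in edgeR), or 5.05-fold. The counts of Gzmc to Gzmg and of Gzmn summed to 1 feature, which removes the split of reads among them, gave 2.36 (adjusted p = 1.4e-09 in edgeR). Per length, Gzmc stood at 115 ± 7.45 TPM with IL-3 supernatant, beside 113 ± 5.79 TPM for Prf1, and at 22.3 ± 4.95 TPM with PBS supernatant, beside 102 ± 5.76 TPM for Prf1. The ratio of Gzmc to Prf1 in TPM was 1.01 ± 0.0534 with IL-3 supernatant and 0.217 ± 0.0407 with PBS supernatant (SD, n = 3 each; exact two-sided permutation p = 0.10, the smallest possible). Gzmc was at about the level of Prf1 in the IL-3 supernatant libraries, where its rank by TPM was 1418 to 1592, against 5134 to 6271 in the PBS supernatant libraries. The ratio of Gzmb to Gzmc was 105 ± 4.77 with IL-3 supernatant and 282 ± 47.1 with PBS supernatant.

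The other members of the cluster were rare. Gzmf (granzyme F, ENSMUSG00000015441, chr14:56205263-56211417) had 15, 13 and 29 counts in the IL-3 supernatant libraries and 6, 3 and 0 in the PBS supernatant libraries. Its log2 fold change was 2.45 (SE 0.71, adjusted p = 0.0152 in edgeR), and the call was lost without IL-3 supernatant replicate 3 (log2 1.97, adjusted p = 0.109) and without PBS supernatant replicate 3 (log2 1.89, adjusted p = 0.0649). Like Gzma, it reached the filter only through the IL-3 supernatant libraries. Gzmf also overlaps an annotated antisense gene, Gm4022, not analysed here, and how strand was treated is not given in the sources used here. Gzmd (granzyme D, ENSMUSG00000059256, chr14:56129556-56132608) had 14, 9 and 20 counts with IL-3 supernatant and 0, 0 and 1 with PBS supernatant, and Gzme (granzyme E, ENSMUSG00000022156, chr14:56117626-56120625) had 8, 3 and 7 counts with IL-3 supernatant and 0 in each of the 3 PBS supernatant libraries. Neither overlapped between groups, and neither was tested. Scaled by library totals, the 43 Gzmd counts against 1 gave a ratio of 38.2 with a 95% exact binomial interval of 6.498 to 1543, which covers counting error only. For the 18 Gzme counts against 0, a floor of 3 counts put in for the PBS supernatant group gave a ratio of 5.33. That ratio leaves out the counting error of the 18 counts and depends on the floor, so it is not a lower bound. Fitted in edgeR without the filter, Gzmd had an adjusted p of 0.000113 and Gzme of 0.0135. On log2(TPM + 1) of 5 libraries without a filter neither passed (limma adjusted p = 0.108 for Gzmd and 0.164 for Gzme). With a filter on TPM, Gzmd passed there (limma adjusted p = 0.0211) and on TPM of 6 libraries (0.00829). It reached that filter only through the IL-3 supernatant libraries. Gzmg (granzyme G, ENSMUSG00000040284, chr14:56156582-56159579), whose promoter and coding sequence are of the same kind, had 0 counts in all 6 libraries.

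Gzma, which encodes the tryptase granzyme A (ENSMUSG00000023132, chr13:113093825-113100981, minus strand), had 177, 168 and 95 counts in the IL-3 supernatant libraries and 10, 8 and 3 in the PBS supernatant libraries. Its level was 9.11, 7.56 and 4.85 CPM with IL-3 supernatant and 0.556, 0.443 and 0.171 CPM with PBS supernatant. The groups did not overlap, although the values varied more within each group than those of Gzmb or Gzmc. The log2 fold change was 4.17 (SE 0.36, adjusted p = 2.0e-07 in edgeR), and 0.298% of tested genes had a larger increase. Gzma reached the filter only through the IL-3 supernatant libraries, so this p and this place among tested genes add no support to the counts themselves. By amount, Gzma held 16.0 ± 4.72 TPM with IL-3 supernatant and 0.855 ± 0.442 TPM with PBS supernatant (SD, n = 3 each), far under Gzmc and Gzmb per length. Gzmk (granzyme K, ENSMUSG00000042385, chr13:113171608-113225908, minus strand), its neighbour and closest relative among the granzymes by coding sequence (60.2% of aligned bases), had 0 counts with IL-3 supernatant and 1 with PBS supernatant, both under the floor, so no fold is given. Gzmm (granzyme M, ENSMUSG00000054206, chr10:79689020-79695261, plus strand), a granzyme best known from NK cells, had 10, 7 and 7 counts with IL-3 supernatant and 4, 6 and 12 with PBS supernatant. Those groups overlapped, and the ratio of summed counts was 0.969 (95% exact binomial interval 0.520 to 1.81), so at this depth no difference was detectable.

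Taken by abundance, the 10 genes held 0.907%, 0.862% and 0.910% of all counts in the IL-3 supernatant libraries and 0.474%, 0.453% and 0.455% in the PBS supernatant libraries. The means were 0.893% ± 0.0269 with IL-3 supernatant and 0.461% ± 0.0113 with PBS supernatant (SD, n = 3 each), a ratio of 1.94 (exact two-sided permutation p = 0.10, the smallest possible), and 95% Wilson bounds lay at most 0.00424 percentage points from a library's share, counting error only. Per length the genes held 1.22% ± 0.0368 of all TPM with IL-3 supernatant and 0.628% ± 0.0228 with PBS supernatant. Gzmb made 98.5% of the summed increase of 4225 CPM, Gzmc 1.04%, Prf1 0.219% and Gzma 0.161%. Of the counts within the 10 genes, Gzmb took 97.9% ± 0.0407 with IL-3 supernatant and 97.4% ± 0.131 with PBS supernatant, but of their TPM it took 97.97% ± 0.0376 with IL-3 supernatant and 97.98% ± 0.110 with PBS supernatant, a difference of the other sign (exact permutation p = 1). Its part of the pool per length did not differ beyond the spread between libraries. Prf1 made 0.924% ± 0.0213 of the TPM of the 10 genes with IL-3 supernatant and 1.63% ± 0.0863 with PBS supernatant (SD, n = 3 each; exact permutation p = 0.10). Gzmc made 0.616% ± 0.0286 of their counts with IL-3 supernatant and 0.232% ± 0.0423 with PBS supernatant (exact permutation p = 0.10). The members other than Gzmb, Gzmc and Prf1 made 0.107% of those counts with IL-3 supernatant and 0.0217% with PBS supernatant. The plot of shares and ratios sets the library share beside the composition.

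**Figure D2:**
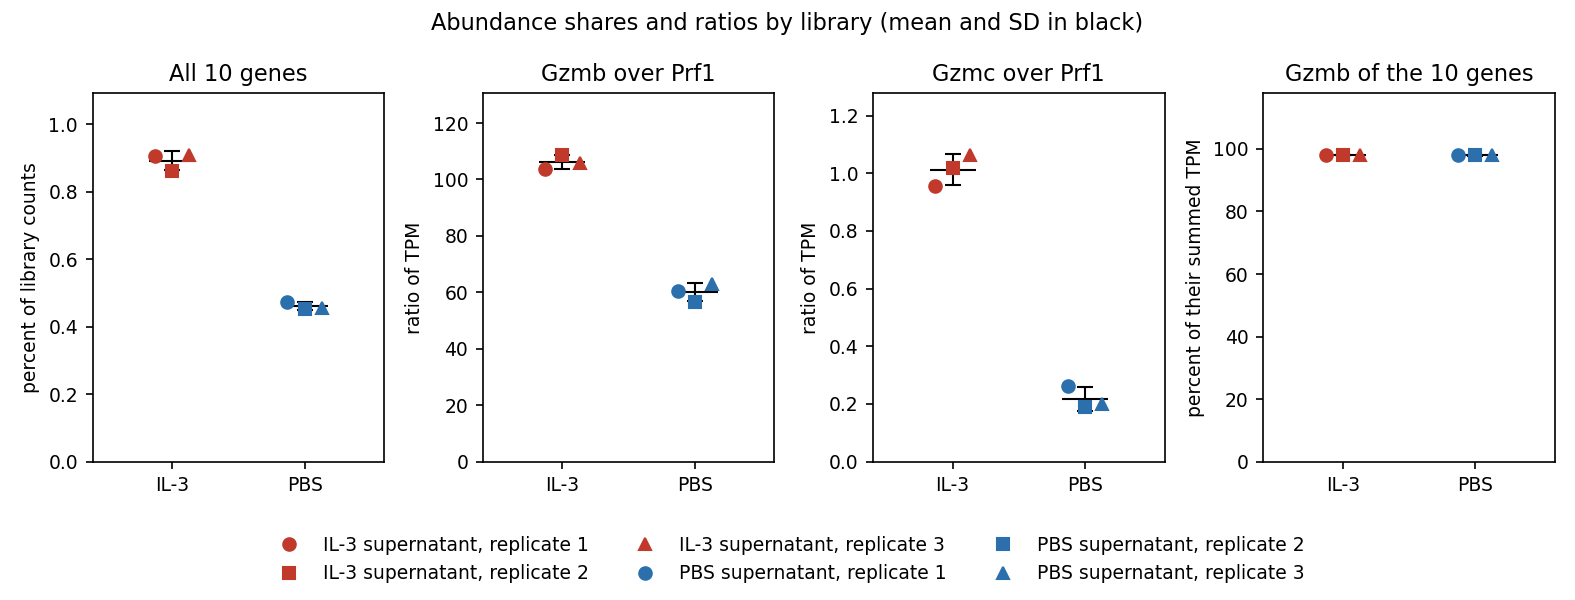
From left to right, the percent of library counts on the 10 genes, the TPM ratio of Gzmb to Prf1, the TPM ratio of Gzmc to Prf1 and the percent of the 10 genes' TPM that is Gzmb, for each library with IL-3 supernatant (red, left) and PBS supernatant (blue, right), on axes from 0 with mean and SD of 3 libraries in black. The first 3 panels show groups apart, with means of 0.893%, 106 and 1.01 for IL-3 supernatant and of 0.461%, 60.04 and 0.217 for PBS supernatant, and in the last both groups sit at 98.0%.

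The genome around the members showed where the counts lay. The chromosome 14 cluster, as annotated from Cma1 to Gzmb, spans 320810 bases (chr14:55941451-56262260) with 15 protein-coding genes. Of the 9 that are not members, among them the chymase genes, cathepsin G (Ctsg), Gzmn and the basophil gene Mcpt8, 8 had 0 counts in all 6 libraries, and Cma1 had 1 count, with PBS supernatant. Within the cluster the mean level per length in the IL-3 supernatant libraries was lower the farther a detected member lay from Gzmb. It was 115 TPM for Gzmc, 24182 bases away, 2.05 TPM for Gzmf at 47421 bases, 1.46 TPM for Gzmd at 126230 bases and 0.640 TPM for Gzme at 138213 bases, whereas Gzmg at 99259 bases had 0 counts. Gzmf, Gzmd and Gzme were neighbours in that order whose libraries overlapped, so the order is a description. Of 15 protein-coding genes that flank the members' loci, 8 were tested, of which 2 were higher and 1 lower, a share near that of all tested genes, 14.8% higher and 16.1% lower. Those were Adamts14 beside Prf1 (log2 1.30), Bsg beside Gzmm (log2 0.34) and Sdr39u1 at the Cma1 end of the cluster (log2 -0.39). Snx18, Tpgs1, Cdc34, Hcn2 and Pald1 did not pass, with log2 fold changes of 0.13, -0.03, 0.07, -0.71 and 1.24. Below the filter, Atp12a, the gene past Gzmb, had 23 counts with IL-3 supernatant and 1 with PBS supernatant, and Cdc20b, beside Gzma, had 8 counts with IL-3 supernatant, all in replicate 3, and 3 with PBS supernatant.

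**Figure D3:**
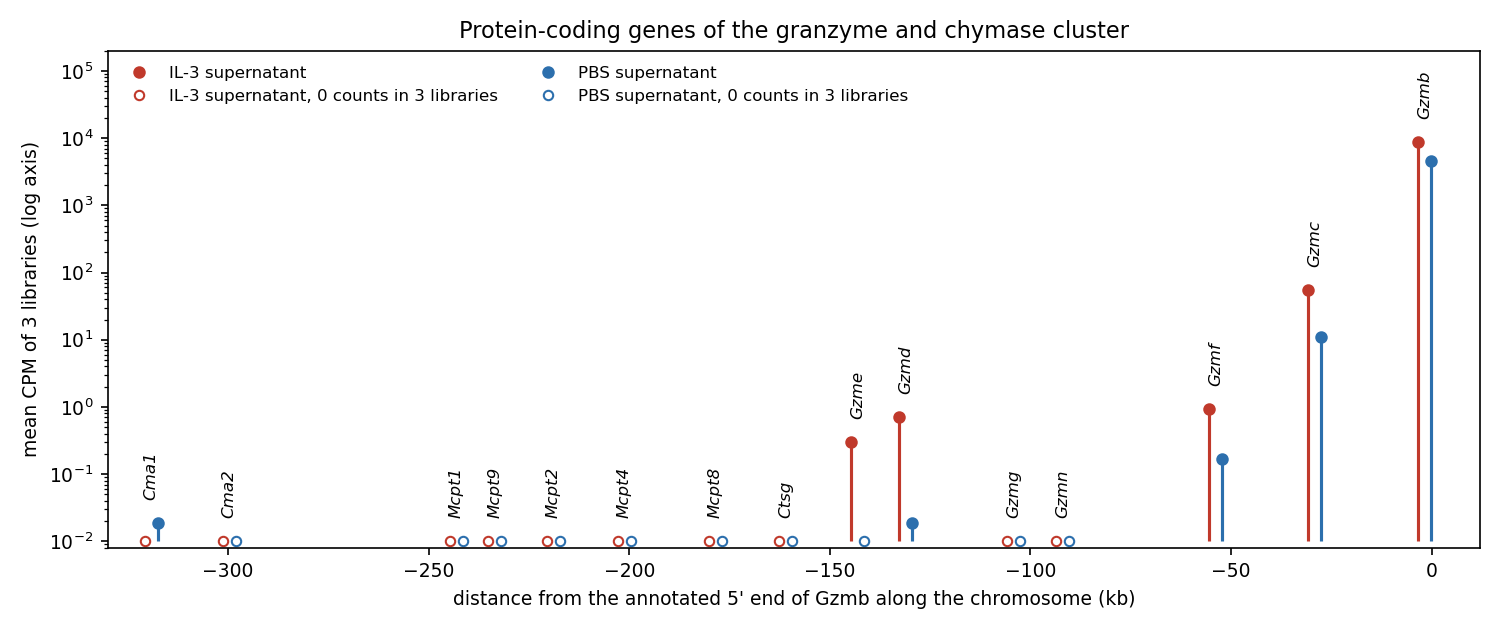
Mean CPM of 3 libraries, on a log axis, for the 15 protein-coding genes of the cluster against the distance of the middle of each gene from the annotated 5′ end of Gzmb, in kb, with IL-3 supernatant in red (left of each pair) and PBS supernatant in blue. Open circles at the foot of the axis mark 0 counts in 3 libraries. The 2 genes nearest to Gzmb's end of the axis, Gzmb and Gzmc, stand above 10 CPM in both groups, and the genes from Cma1 to Ctsg are at 0 except for 1 count of Cma1.

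Genes of the granule pathway were read from lists chosen with earlier results of these data known. Of 28 genes for packaging and release of granules, 25 were tested, of which 6 were higher, 5 lower and 14 not passed, beside 14.8% higher and 16.1% lower over all tested genes, and with a median log2 fold change of 0.01 beside -0.00. Srgn, which encodes serglycin, the proteoglycan that binds granzymes and perforin in the granule, was at 382 ± 21.6 CPM with IL-3 supernatant and 219 ± 23.8 CPM with PBS supernatant (log2 0.80, SE 0.07, adjusted p = 1.0e-06 in edgeR). Sytl3 (log2 0.82) and Sytl2 (log2 -1.999), which encode synaptotagmin-like partners of Rab27, went in opposite directions. Sytl3 was at 99.8 ± 7.02 CPM with IL-3 supernatant and 56.4 ± 3.46 CPM with PBS supernatant. Sytl2 had 1.77 ± 0.276 CPM with IL-3 supernatant and 7.11 ± 0.905 CPM with PBS supernatant. Stx11, which encodes a syntaxin needed for granule release, was higher (log2 0.67). Named after their values were seen, Rab27a (log2 -0.00), Nkg7 (-0.05) and Lamp1 (0.14) did not pass, although the groups of Lamp1 did not overlap. Others of this list, also named after their values were seen, were called. Unc13d was higher (log2 0.19, adjusted p = 0.0302 in edgeR), a call lost in several settings, and Lyst was lower (log2 -0.54, adjusted p = 9.7e-06 in edgeR). Ctsc, the protease that activates granzymes, also named after its values were seen, was called lower (log2 -0.17, adjusted p = 0.0240 in edgeR), a call lost with library sizes alone (adjusted p = 0.0764) and without IL-3 supernatant replicate 2 (adjusted p = 0.105) or 3 (0.0656) or PBS supernatant replicate 2 (0.0665) or 3 (0.0849).

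Of 6 granzyme inhibitors and related serpins, 5 were tested, of which 4 were higher and 1 lower, beside 14.8% higher and 16.1% lower over all tested genes, with a median log2 fold change of 1.95. Serpinb9, which encodes the inhibitor that shields T cells from their own granzyme B, was at 654 ± 21.99 CPM with IL-3 supernatant and 169 ± 17.7 CPM with PBS supernatant, and its log2 fold change of 1.95 (SE 0.07) was larger than that of Gzmb. Per length, a ratio chosen after these values were seen, the libraries held 31.9 ± 1.86 Gzmb transcripts per Serpinb9 transcript with IL-3 supernatant and 64.7 ± 5.50 with PBS supernatant. Serpinb6b (log2 2.09) and Serpinb9b (log2 2.30), relatives of Serpinb9, were higher as well, with Serpinb9b at only 2.97 ± 0.627 CPM with IL-3 supernatant and 0.595 ± 0.270 CPM with PBS supernatant. The fourth higher gene, Serpinb6a, named after its values were seen, was higher by little (log2 0.21, adjusted p = 0.0424 in edgeR). Its call was lost in DESeq2 (adjusted p = 0.0748), with the replicate block (0.0729) and with any library but IL-3 supernatant replicate 2 left out (0.0534 to 0.146). Serpina3g, which inhibits lysosomal cathepsins, was lower at 13.7 ± 1.81 CPM with IL-3 supernatant and 74.6 ± 2.23 CPM with PBS supernatant (log2 -2.45).

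Of 9 granzyme substrates and executioners of cell death, 0 were higher, 2 lower and 7 not passed. Over all tested genes, 14.8% were higher and 16.1% lower. Under DESeq2's size factors 1 of the 9 was higher, and under library sizes alone 2 were. Without IL-3 supernatant replicate 1, 1 was higher, and without PBS supernatant replicate 1, 4 were lower. Casp8, which encodes an initiator caspase, was among the lower ones (log2 -0.35). Of 6 genes for other ways of killing, 4 were higher and 2 not passed, beside 14.8% of all tested genes called higher. Fasl, which encodes the ligand of the death receptor Fas, was at 23.8 ± 3.07 CPM with IL-3 supernatant and 12.6 ± 1.35 CPM with PBS supernatant (log2 0.91), a fold close to that of Gzmb and Ifng (log2 0.96). Tnf (log2 0.46) and Tnfsf10 (log2 0.41), which encode the death ligands TNF and TRAIL, were higher by less, and Tnfsf10 did not pass on log2(TPM + 1) of 5 libraries (limma adjusted p = 0.0836).

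Of 16 regulators of the cytotoxic programme, 8 were higher, 3 lower and 5 not passed, with a median log2 fold change of 0.18. Over all tested genes, 14.8% were higher and 16.1% lower. Stat5a, which encodes a transcription factor activated by the receptors of IL-2 and IL-3, was at 365 ± 10.6 CPM with IL-3 supernatant and 154 ± 2.02 CPM with PBS supernatant (log2 1.248, SE 0.05, adjusted p = 1.1e-11 in edgeR). Nfil3 (log2 1.53) and Batf (log2 1.08), transcription factors of activated lymphocytes, were higher too. The T-box factors that drive granzyme and perforin genes parted, with Tbx21 higher (log2 0.41) and Eomes lower (log2 -1.86). Tbx21 was at 99.4 ± 1.54 CPM with IL-3 supernatant and 74.8 ± 4.31 CPM with PBS supernatant, and Eomes at 11.5 ± 0.788 CPM with IL-3 supernatant and 41.6 ± 3.35 CPM with PBS supernatant. Runx3, a Runt factor of CD8 T cells, was higher by little (log2 0.29). Prdm1, which encodes the effector regulator Blimp-1, was lower (log2 -1.12), at 3.08 ± 0.679 CPM with IL-3 supernatant and 6.69 ± 1.27 CPM with PBS supernatant, and did not pass on log2(TPM + 1) of 5 libraries (limma adjusted p = 0.0716). Over all lists, 61 of 65 genes were tested, of which 22 were higher and 11 lower, with a median log2 fold change of 0.03, beside 30.9% of all tested genes called in either direction. The plot of fold changes places the members among these lists.

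**Figure D4:**
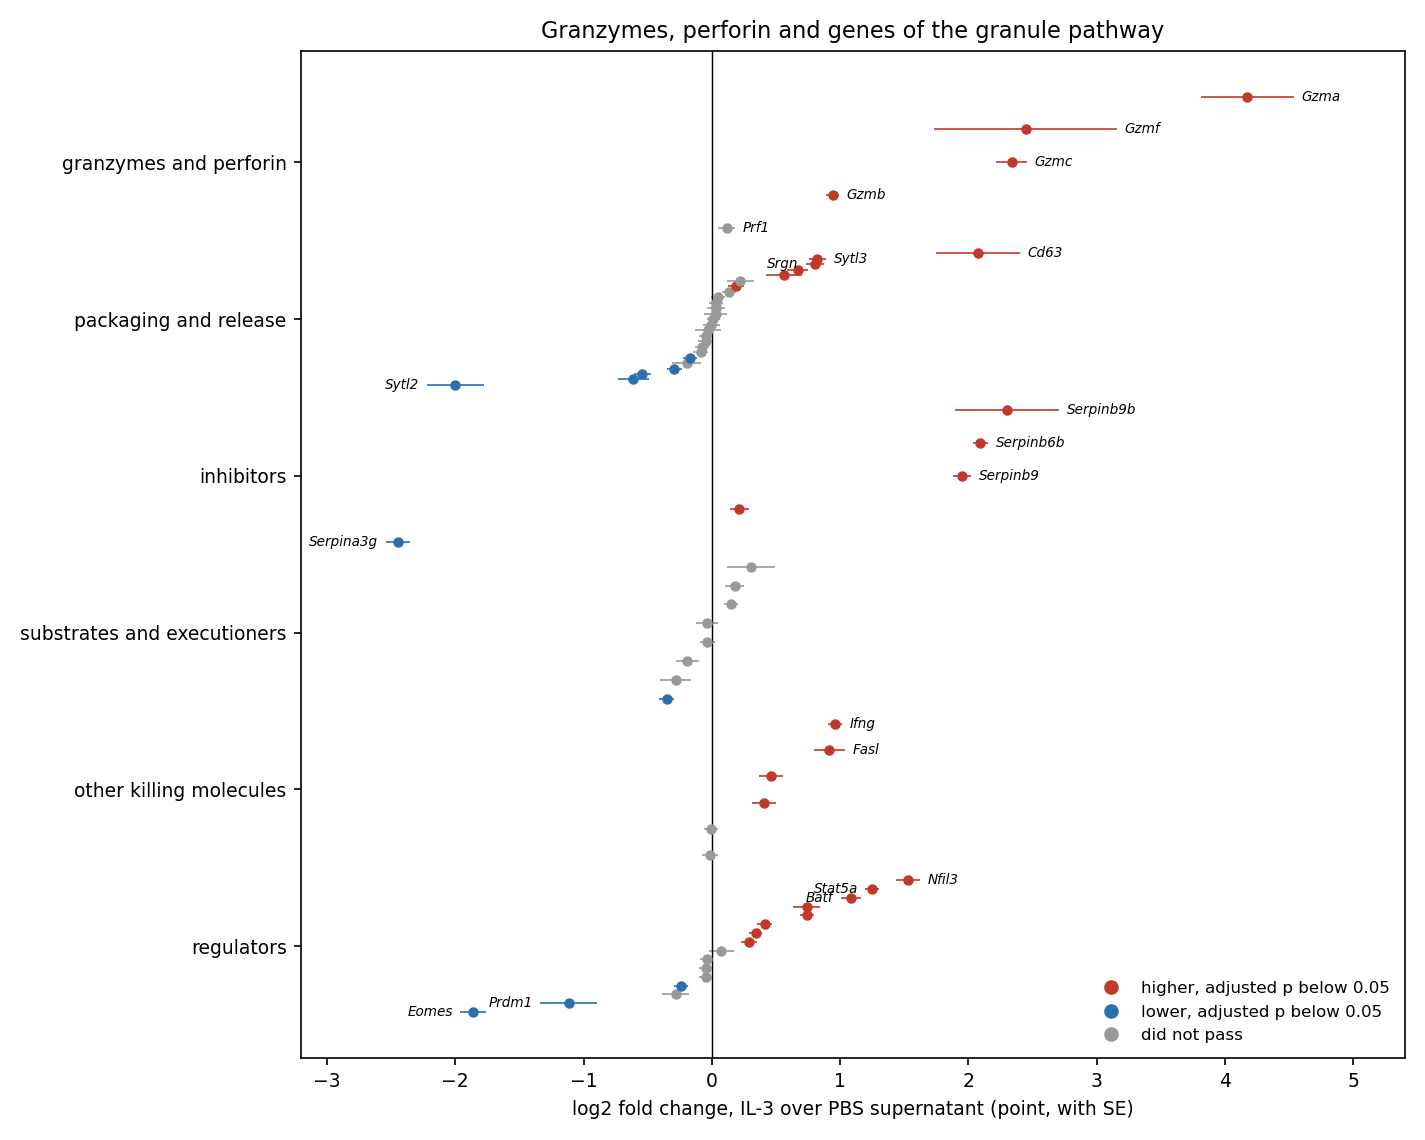
Log2 fold change of IL-3 over PBS supernatant with its SE from edgeR for the 5 tested members and for tested genes of the pathway lists, each point a gene, ordered by value within its list and coloured by the call. Gzma, Gzmf, Gzmc and Gzmb lie to the right of 0 with Prf1 next to it, among the inhibitors Serpinb9b, Serpinb6b and Serpinb9 lie far to the right, Serpina3g far to the left and Serpinb6a near 0, and most genes of packaging and release lie near 0.

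The genes whose pattern over the 6 libraries was most like that of a member were found as the smallest Euclidean distance of centred log2 CPM among 7230 tested genes of at least moderate level. For Gzmb they were Mfhas1 (distance 0.0837), Ifng (0.102), Traf1 (0.142), Dusp4 (0.157) and Ptpn5 (0.159), beside a median of 1.19 over the genes compared. Their log2 fold changes were 0.83 to 1.01, and Ifng, at 1701 ± 41.6 CPM with IL-3 supernatant and 876 ± 57.3 CPM with PBS supernatant, was the most abundant of them. For Gzmc they were Itga3 (0.320), Myo10 (0.378), Jcad (0.405), Cth (0.434) and Serpinb6b (0.444), beside a median of 2.92, with log2 fold changes of 2.09 to 2.60. With 2 groups of 3, such a distance mostly reads the size of the difference between the groups and the depth of each gene.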

How the data were processed

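Sample titles gave the groups and the replicate numbers. The authors deposited a table of expected counts per gene for each of 6 libraries. They also deposited TPM, per gene for 5 libraries and per isoform for PBS supernatant replicate 2, which was added up by gene (99.7% of that library's TPM had a gene). Per the submitters' processing notes, RSEM 1.2.12, Bowtie2 2.2.0, edgeR 3.20.9 and GRCm38 were used. What each did, the annotation, the read length and whether reads were counted by strand were not given in the sources used here. Libraries were made by poly(A) capture with a TruSeq kit, per the labels' protocols. Symbols matched 46005 of 46517 identifiers. Expected counts, which need not be whole, were rounded.

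The test was edgeR 4.0.16 in R 4.3.3 on all 6 libraries, with filterByExpr, which kept 12407 genes, TMM scaling, robust estimates of dispersion, a quasi-likelihood fit on group with no block, and Benjamini-Hochberg adjustment at 0.05. CPM use TMM-scaled library sizes. A positive log2 fold change means higher with IL-3 supernatant, and an SE comes from the F statistic. Shares and ratios per library were compared by exact permutation tests. Members below the filter were described by counts, with a floor of 3 counts over a group. No pair of replicates agreed within sampling noise. Not every same-numbered pair of libraries deviated together, so the numbers were not taken to pair them. Alternatives were DESeq2 1.42.0, limma 3.58.1 with voom and on log2(TPM + 1) and log2(TPM + 0.1), other scalings and filters, the replicate block, each library left out, and, added after seeing the data, a fit without CT010467.1, which took 0.433% to 4.51% of a library's counts.

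The members and lists were chosen with earlier results of these data known. Named genes were all 10 members, up to 4 called genes of each pathway list with the smallest p, Tbx21, Eomes, Runx3 and Prdm1, locus neighbours with at least 10 counts over the 6 libraries, and the 5 genes most like Gzmb and Gzmc among those whose average log2 CPM was 4 or more. One gene of the pathway lists is in the counts but is not reported here and not plotted. Tables and plots used Python 3.11.15, pandas 2.3.3, scipy 1.17.1, Biopython 1.88 and matplotlib 3.10.9.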

Additional observations from a re-analysis of the deposited data

How the results depend on the processing

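Gzma, Gzmb and Gzmc kept their direction and their call under all alternatives run, with log2 fold changes of 3.18 to 4.51, 0.92 to 0.97 and 2.23 to 2.51, and Prf1 passed under none of them (0.06 to 0.18). Gzmf, with 57 counts over the IL-3 supernatant group and 9 over the PBS supernatant group, ranged from 1.15 to 3.39 and lost its call in 5 settings, which besides the libraries already named were log2(TPM + 0.1) (adjusted p = 0.0566), log2(TPM + 1) without a filter (adjusted p = 0.237) and the threshold of 0.01, and it fell below the filter of 1 CPM. Between 3 and 6 members were called higher and 0 lower, with 6 higher without the filter and in DESeq2, where Gzmd and Gzme passed. On log2(TPM + 1) of 5 libraries Gzmd and Gzme did not pass without a filter, and Gzmd passed with it (limma adjusted p = 0.0211). Leaving out a library gave 3 to 5 members, 1458 to 1916 genes higher and 1601 to 2102 lower. Gzmd was past the filter and called higher without IL-3 supernatant replicate 2 (edgeR adjusted p = 0.00108). That was also so without PBS supernatant replicate 1, 2 or 3 (edgeR adjusted p = 0.00304, 0.00656 and 0.00259). It reached the filter there only through the IL-3 supernatant libraries. On TPM of 5 libraries 1156 genes were higher with a pseudocount of 1, 1158 with 0.1 and 669 without a filter, against 1834, and 1217 at an adjusted p below 0.01. Without a filter on TPM, 820 genes were lower against 2001, 13 pathway genes higher against 22 and 7 lower against 11, and 1 locus neighbour higher against 2 and 0 lower against 1, with 5 libraries in the fit. The difference in Gzmb's share of the members' counts, 0.547 percentage points, turned to -0.037 on TPM of 5 libraries (exact permutation p = 0.8) and -0.00675 on TPM of 6, where TPM divides by transcript length, and was 0.492 to 0.619 with a library left out. With the replicate number as a block, 4 members, 1634 genes higher and 1776 lower were called. The correlations of same-numbered libraries' deviations were -0.149, 0.0517 and 0.254, so not every library went best with its own number. Among pathway genes the calls of Ctsc, Unc13d and Serpinb6a were lost in several settings (adjusted p = 0.0561, 0.0612 and 0.0729 with the block). The median log2 fold change of all genes was -0.00467 with TMM, 0.0023 with DESeq2's size factors and 0.0163 with library sizes alone. Other causes were not tested. Depth limits Gzmd, Gzme, Gzmf, Gzmk and Gzmm, which had at most 57 counts in a group.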

Other observations

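In PBS supernatant replicate 2, the library with TPM per isoform, Gzma, Gzmb, Gzmc, Gzmf and Prf1 were each listed with a single transcript, so their TPM could fall on no other, and Gzmm had all its TPM on 1 of 2 listed transcripts. The level was 5976 TPM for Gzmb, 105 TPM for Prf1, 20.0 TPM for Gzmc, 0.933 TPM for Gzma, 0.478 TPM for Gzmm and 0.339 TPM for Gzmf. The 3 listed isoforms of Gzmk were at 0. Isoform values of the other 5 libraries were not analysed here, so no comparison between groups is made.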
